A study of Mus musculus with 19 samples.

Results

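Hepatic stellate cells (HSCs) kept for 12 h in culture were compared with freshly isolated HSCs to describe the genes and pathways that differed early in culture activation, and to set the loss of RNA from other liver cells apart from changes in stellate genes. The comparison took the 3 samples labelled 12 h and the 2 samples labelled 0 h, 5 of the 19 samples of a culture time course, with no measured value used in the choice. All HSCs came from uninjured male mice of the Balb/c strain, 23 to 24 weeks of age, and were sorted on their ultraviolet positivity, and no transgene, allele or test agent is named for either group. The 12 h cells had been sorted into collagen-coated 24-well plates in Dulbecco's modified Eagle's medium with 10% fetal bovine serum, penicillin-streptomycin and glutamine, with 1 medium change at 3 h. The 0 h cells were lysed without plating, so that attachment, serum, medium and time in culture entered the comparison together and cannot be told apart. Each sample carries a number, M1, M2 or M3, and the date of a cell isolation. What the number stands for is not given, and samples that share it are taken here as coming from the same preparation of cells. M2 and M3 each have a sample at both times, and M1 has a 12 h sample and none at 0 h that was analysed here. M1 and M3 carry one date and M2 a later one. Each sample stands for 2 technical repeats that the files do not separate. Total counts were 4466759 and 2073171 at 0 h and 4286832, 5902962 and 7690892 at 12 h.

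HSCs are the pericytes of the liver sinusoid. In the healthy liver they store vitamin A as retinyl ester in lipid droplets, and that store gives the ultraviolet fluorescence by which they are sorted. On injury, or when placed on a stiff dish, they activate: they lose the retinoid store, rebuild their cytoskeleton, secrete cytokines and matrix, and take on a myofibroblast character. A sorted preparation can also carry RNA of hepatocytes, sinusoidal endothelial cells, Kupffer cells and blood cells, and such RNA can decline in a dish without any change in the HSCs themselves. In bulk RNA, fewer cells of a type and less RNA per cell cannot be told apart.

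Levels are given as CPM, counts scaled to a library total of 1000000 after correction by the trimmed mean of M values (TMM), in the order M2 and M3 for 0 h, then M1, M2 and M3 for 12 h. A gene is said to have risen or fallen where edgeR's quasi-likelihood test, fitted to all 19 samples, gave an adjusted p (Benjamini-Hochberg) under 0.1 with more than a 2-fold change, and every adjusted p below comes from that test. Of 15138 genes tested, 2680 (17.7%) passed, 1302 (8.60%) higher and 1378 (9.10%) lower at 12 h. Regardless of the test, all 3 samples at 12 h lay above both at 0 h for 3066 genes (20.3%) and below both for 3468 genes (22.9%). These shares are the background of every list count below. Some lists lie near them, such as the cholesterol synthesis and replication lists, with 8.33% and 10.3% of members called lower. The median log2 fold change over all genes tested was 0. Zero counts were common in these 3' end libraries: 1394 tested genes had 0 counts in one 12 h library and over 10 CPM in another, and 1322 did so between the 0 h libraries. Where a gene had 0 counts in one whole group, its fold change is a lower bound set against 3 counts in the shallowest library of that group, which is 1.51 CPM at 0 h and 0.695 CPM at 12 h.

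Among the lists of other liver cells, that of hepatocytes lost the most summed CPM. Only the mesothelial and portal fibroblast list kept a smaller share of its 0 h sum. Of 32 hepatocyte markers tested, 19 fell, against 9.10% of all genes tested, the median log2 fold change being -5.68 (-5.50 with genes at 0 counts set to their bound), and for 30 all 12 h samples lay below both 0 h samples. Alb, serum albumin, measured 1813 and 4447 CPM at 0 h and 48.2, 23.4 and 112 CPM at 12 h (log2 fold change -5.68 ± 1.34 (SE), adjusted p = 0.00858). The apolipoprotein Apoa1 stood at 295 and 337 CPM at 0 h and 6.95, 4.07 and 7.34 CPM at 12 h (log2 fold change -5.69 ± 0.69 (SE), adjusted p = 2.79e-05). Ttr, the thyroxine carrier transthyretin, stood at 405 and 917 CPM at 0 h and 35.2, 25.1 and 18.4 CPM at 12 h (log2 fold change -4.66 ± 1.68 (SE), adjusted p = 0.0805, and adjusted p = 0.102 with the M number as a block). In all 3 genes the 12 h samples lay far below the 0 h samples, and the 0 h sample of M3 was the higher of the pair. Ambp (bikunin precursor), Mup20 (a major urinary protein) and Hpd (tyrosine catabolism) had 0 counts in all 3 samples at 12 h, with 115 and 161 against 0 CPM for Ambp, 38.6 and 79.3 against 0 CPM for Mup20 and 16.3 and 81.3 against 0 CPM for Hpd, whose adjusted p became 0.183 with the M number as a block. Among the 13 hepatocyte markers that did not pass, Mup3, of a family of near-identical genes, measured 379.6 and 461 CPM at 0 h and 15.3, 2.04 and 44.3 CPM at 12 h (adjusted p = 0.193). Leaving out the 0 h sample of M3 left 7 markers called, and leaving out the 12 h sample of M3 left 12.

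The summed level of the hepatocyte list went from 6837 and 13428 CPM at 0 h to between 191 and 316 CPM at 12 h, 2.63% of the starting mean. Most of that loss had already happened at 3 h, when 13.5% was left. Of the 19 hepatocyte markers that fell, 17 were under 25% of their 0 h level at 3 h (median 13.7% left). Stellate markers kept a different timetable from hepatocyte markers. Their summed level was still 96.6% of the 0 h mean at 3 h, 58.0% at 6 h and 22.2% at 12 h. Per gene less was left at 3 h, a median of 66.8% over the 22 that fell, of which 1 was under 25%. Over all 1378 genes that fell, a median of 57.9% of the level was left at 3 h, and 253 of them were under 25%. These 3 h levels come from other samples with the same M numbers and were compared as levels, with no test between lists.

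**Figure D1:**
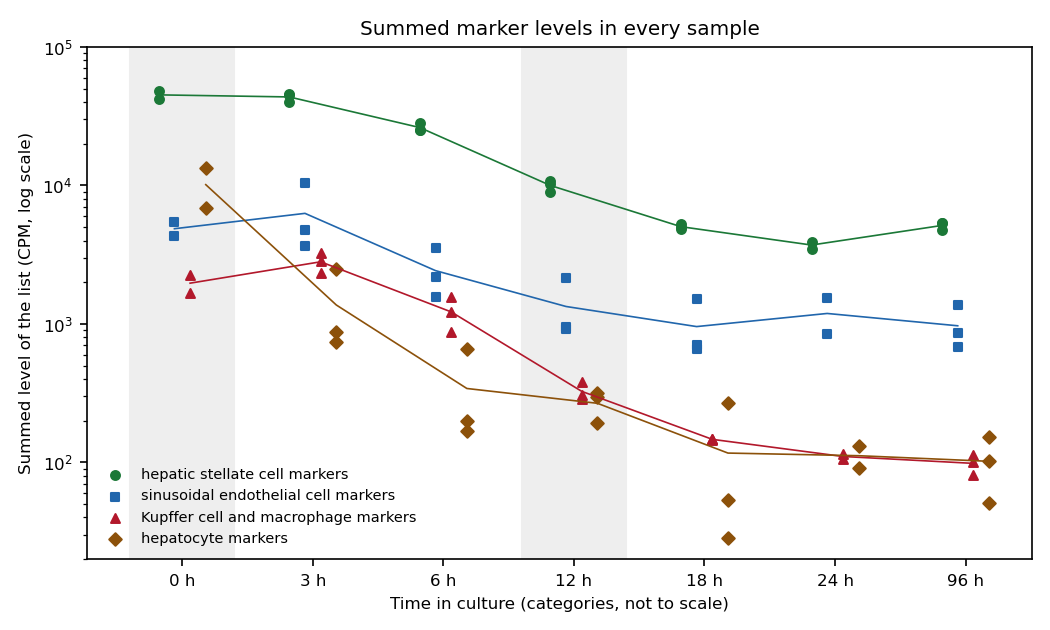
Summed level of the marker lists in each of the 19 samples (CPM, log scale) against culture time, which is spaced as categories. Points are samples and lines join the means of each time. The hepatocyte sum has dropped to 13.5% of its 0 h mean at 3 h, when the stellate sum stands at 96.6%, and the stellate sum reaches 22.2% at 12 h.

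Erythrocyte RNA went the same early way as that of hepatocytes, whereas that of Kupffer cells left later. The α-globins Hba-a1 (60.7 and 146 against 0 CPM) and Hba-a2 (51.4 and 133 against 0 CPM) and the β-globins Hbb-bs (35.9 and 54.7 against 0 CPM) and Hbb-bt (14.5 and 19.6 against 0 CPM) fell to 0 counts, and at 3 h a median of 9.33% of their level was left. These calls lay close to the threshold, with adjusted p = 0.0509 for Hba-a1 and adjusted p = 0.0983 for Hbb-bt. With edgeR, 0 of the 4 passed with the M number as a block, 2 passed without the 0 h sample of M2 and 0 passed without any one of the other 4 samples, while all 4 had an unadjusted p under 0.05 and DESeq2 called 0. The globin copies share near-identical sequence. Pf4, a platelet chemokine, did not pass, at 38.4 and 45.2 CPM at 0 h and 81.3, 37.5 and 0 CPM at 12 h (adjusted p = 1).

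Of 17 Kupffer cell and macrophage markers tested, 8 fell. The Kupffer lectin Clec4f measured 62.7 and 61.3 CPM at 0 h and 0 in all 3 samples at 12 h (at least 89.2-fold lower, adjusted p = 0.00279). C1qa, a chain of complement C1q, stood at 49.4 and 50.7 CPM at 0 h and 0 in all 3 samples at 12 h (at least 72-fold lower, adjusted p = 0.0593). C1qc (94.8 and 38.7 against 0 CPM) and the complement receptor Vsig4 (53.7 and 60.3 against 0 CPM) likewise had no count left at 12 h. The ficolin Fcna was still counted in every sample, at 1533 and 1023 CPM at 0 h and 328, 249 and 261 CPM at 12 h, or 4.58-fold lower. It held most of the summed level of the list at 12 h. With Fcna left out, 6.68% of the 0 h sum remained at 12 h, against 16.5% with it. Its course departed from the rest: Fcna averaged 1278 CPM at 0 h, 2323 CPM at 3 h and 1171 CPM at 6 h. The rest of the list had 70.3% of its 0 h sum left at 3 h and 7.22% at 6 h. Which cells the Fcna RNA came from was not tested. The lysozyme Lyz2 did not pass (139.9 and 78.3 against 4.86, 10.5 and 19.5 CPM, adjusted p = 0.177). At 3 h the median Kupffer marker that later fell still had 73.0% of its 0 h level, and none of the 8 was under 25%.

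Most sinusoidal endothelial markers did not pass, though more lay lower than higher. Of 25 tested, 10 lay lower in all 12 h samples and 3 higher, against 22.9% and 20.3% of all genes tested. The median log2 change of the members was -3.26 in M2 and -1.28 in M3. Ehd3, an endocytic ATPase, fell from 2945 and 2589 CPM at 0 h to 354, 185 and 211 CPM at 12 h (log2 fold change -3.47 ± 0.34 (SE), adjusted p = 2.86e-06), and Wnt2, a Wnt ligand, from 14.5 and 23.6 to 0 CPM (adjusted p = 0.083). These were the only 2 of 25 markers that passed, but with the M number as a block 8 passed. The scavenger receptor Stab2 measured 116 and 50.7 CPM at 0 h and 70.9, 0 and 20.5 CPM at 12 h (adjusted p = 0.665). The VEGF receptor Kdr measured 271 and 173 CPM at 0 h and 87.3, 27 and 3.87 CPM at 12 h (adjusted p = 0.376, and adjusted p = 0.0537 with the M number as a block). VE-cadherin, Cdh5, lay higher in all 12 h samples without passing (28.1 and 40.7 against 244, 81.1 and 69.8 CPM, adjusted p = 0.327). In Cdh5 and in the list's sum, the M1 sample at 12 h was the highest of the 3, at 2141 CPM for the sum against a lowest of 920 CPM. At 3 h the sum of the list averaged 129% of its 0 h mean, with 10404 CPM in M1 against a lowest of 3682 CPM. Without Ehd3, the sum stood at 235% of its 0 h level at 3 h and 51.6% at 12 h. Ehd3 alone averaged 2767 CPM at 0 h, above the 2102 CPM of the other markers together, and went to 1355 CPM at 3 h. At 96 h it averaged 704 CPM, against 265 CPM for the others. Which cells the Ehd3 RNA came from was not tested.

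Most tested markers of the remaining cell types did not pass. Of 22 lymphocyte, neutrophil and dendritic cell markers 3 could be tested: Ccl5 passed as higher at 0 in both samples at 0 h and 11.6, 0 and 15.9 CPM at 12 h, overlapping the 0 h samples, and the call was lost with the M number as a block, and the pan-leukocyte gene Ptprc had counts in 1 sample (15.3 and 0 CPM at 0 h and 0 in all 3 samples at 12 h). Of 12 cholangiocyte markers 4 could be tested and edgeR called 0, with 0 at an unadjusted p under 0.05 and 0 by DESeq2, and the defining keratin Krt19 had no count in any of the 5 samples. The mesothelial and portal fibroblast list had 2 of 7 tested members fall, tetranectin (Clec3b, 156 and 231 against 0 CPM) and elastin (Eln, 70.5 and 58.8 against 0 CPM), and its summed level went from 252 and 317 CPM to between 2.78 and 6.28 CPM, 1.48% of the 0 h mean. Of 7 smooth muscle markers edgeR called 0, with 0 at an unadjusted p under 0.05 and 1 higher by DESeq2. The smooth muscle myosin Myh11 measured 12.3 and 20.1 CPM at 0 h and 3.94, 5.09 and 6.94 CPM at 12 h (adjusted p = 0.388), and the summed level of this list was 89.7% of its 0 h mean. Across the 8 lists of other liver cells, 35 of 101 tested markers fell and 1 rose, against 9.10% and 8.60% of all genes tested. Of 143 markers listed, these 101 passed the filter on low counts, which a gene could pass on the 2 samples at 0 h alone. A marker counted only there could be called lower but not higher, which partly sets the counts of these lists. The 35 are 2.54% of all genes that fell at 12 h. That share is limited by the length of the lists, and 993 genes that fell were on no list. It does not measure how many of the falls came from other liver cells. Leaving out 1 sample brought the 35 down to 16 (0 h, M3), 22 (12 h, M2) and 23 (12 h, M3).

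Stellate identity genes fell as a group. Of 30 stellate markers tested, 22 fell and 2 rose (median log2 fold change -3.59), and the count of 22 varied by no more than 1.5 times under any alternative tried. Lrat, the acyltransferase that makes retinyl esters, measured 1074 and 735 CPM at 0 h and 0, 7.63 and 25.6 CPM at 12 h (log2 fold change -6.32 ± 0.91 (SE), adjusted p = 0.00015). It was close to gone in each 12 h sample, with no overlap between the groups. Hand2, a transcription factor of the embryonic septum transversum and of quiescent HSCs, measured 531 and 495 CPM at 0 h and 0, 3.90 and 0 CPM at 12 h (log2 fold change -8.58 ± 1.83 (SE), adjusted p = 0.00423). The parathyroid hormone receptor Pth1r measured 657 and 636 CPM at 0 h and 0, 5.09 and 0 CPM at 12 h (log2 fold change -8.54 ± 1.54 (SE), adjusted p = 0.0011). Vipr1, the receptor for vasoactive intestinal peptide, went from 2608 and 1905 to 16, 59 and 16.4 CPM (log2 fold change -6.21 ± 1.00 (SE), adjusted p = 0.000404).

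Several abundant stellate transcripts fell by less and were still readily counted. Decorin, Dcn, a collagen-binding proteoglycan, measured 20177 and 18182 CPM at 0 h and 3062, 3699.8 and 4054 CPM at 12 h (log2 fold change -2.41 ± 0.16 (SE), adjusted p = 1.36e-07). Reelin, Reln, measured 2382 and 2220.0 CPM at 0 h and 357, 522 and 499 CPM at 12 h (log2 fold change -2.32 ± 0.26 (SE), adjusted p = 1.41e-05). The intermediate filament desmin, Des, measured 125 and 120.0 CPM at 0 h and 26.9, 48.3 and 30.3 CPM at 12 h (log2 fold change -1.80 ± 0.57 (SE), adjusted p = 0.0476). In each of the 3 genes the groups were clear of each other. Rspo3, the Wnt-enhancing R-spondin of central vein stroma, did not pass, at 695 and 798 CPM at 0 h and 724, 593 and 492 CPM at 12 h (adjusted p = 0.445), and neither did Gata4 (74.2 and 64.3 against 61.6, 40.2 and 48.6 CPM, adjusted p = 0.649). The glial filament Gfap was near the detection limit at 17.3 and 0 CPM at 0 h and 0 in all 3 samples at 12 h.

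The paired ligands BMP9 and BMP10, which both signal through ALK1 on endothelium, moved in opposite directions. Bmp10 rose from 324 and 305 to 1819.5, 2597 and 2246 CPM (log2 fold change 2.82 ± 0.36 (SE), adjusted p = 4.81e-05). Gdf2, which encodes BMP9, fell from 440.1 and 514 to 5.56, 15.9 and 3.87 CPM (log2 fold change -5.81 ± 1.17 (SE), adjusted p = 0.00273). Nestin, Nes, was the other stellate marker that rose (129 and 102 against 637, 873 and 797 CPM, 6.63-fold higher). Of 28 secreted factors and complement genes, 2 rose, Bmp10 among them, and 15 fell. The BMP family member Gdf10 (323 and 448 against 0 CPM), the collectin Colec11 (2668 and 1867 against 60.5, 32.1 and 59 CPM) and the IGF-binding protein Igfbp4 (686 and 583 against 15.8, 9.84 and 17.9 CPM) were among those that fell. The chemokine Cxcl12 did not pass, with overlapping groups at 3932 and 2771 CPM at 0 h and 3135, 4001 and 4044 CPM at 12 h (log2 fold change 0.15 ± 0.20, adjusted p = 0.684).

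Genes that handle vitamin A and fat fell in part. Of 22 genes for vitamin A and lipid droplets tested, 10 fell, including Lrat, the retinol dehydrogenase-like droplet protein Hsd17b13 (17.8 and 37.2 against 0 CPM, and a mean of 0 CPM already at 3 h), the retinoic acid hydroxylase Cyp26b1 (37.6 and 26.1 against 0.463, 1.36 and 1.87 CPM) and the droplet coat genes Plin2 (208 and 198 against 57.2, 72.9 and 21.6 CPM) and Plin3 (67.7 and 58.2 against 6.49, 10.7 and 0 CPM). Adh1 also passed, but only through 1 sample (0 and 170.2 CPM at 0 h and 0 in all 3 samples at 12 h, adjusted p = 0.0887), and both Adh1 and Hsd17b13 are abundant in hepatocytes. The count was 6 without the 0 h sample of M3, 5 without the 12 h sample of M1 and 6 without that of M2. Bco1, which cleaves β-carotene, did not pass (72.2 and 94.9 against 65.1, 111 and 147 CPM).

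Transcription factors of the stellate lineage split. Of 27 tested, 10 fell: beside Hand2, these included the Notch effector Heyl (135 and 139.6 against 0 CPM), Nr2f2 (COUP-TFII, 607 and 597 against 31.5, 29.8 and 56.4 CPM), Tbx20 (386 and 253 against 30.3, 40.7 and 36.7 CPM) and Lhx2 (537 and 391 against 55.6, 70.2 and 104 CPM), the LIM factor known to hold HSCs quiescent. The 3 that rose were Prrx1 (0 against 7.64, 6.95 and 12 CPM), a mesenchymal homeobox gene, Runx1 (16.8 and 2.01 against 51.7, 66.1 and 112 CPM) and Ets2 (135 and 132 against 312, 318 and 222 CPM). Ets1 did not pass the fold limit (343 and 267 against 497, 510.5 and 571 CPM, adjusted p = 0.0166).

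**Figure D2:**
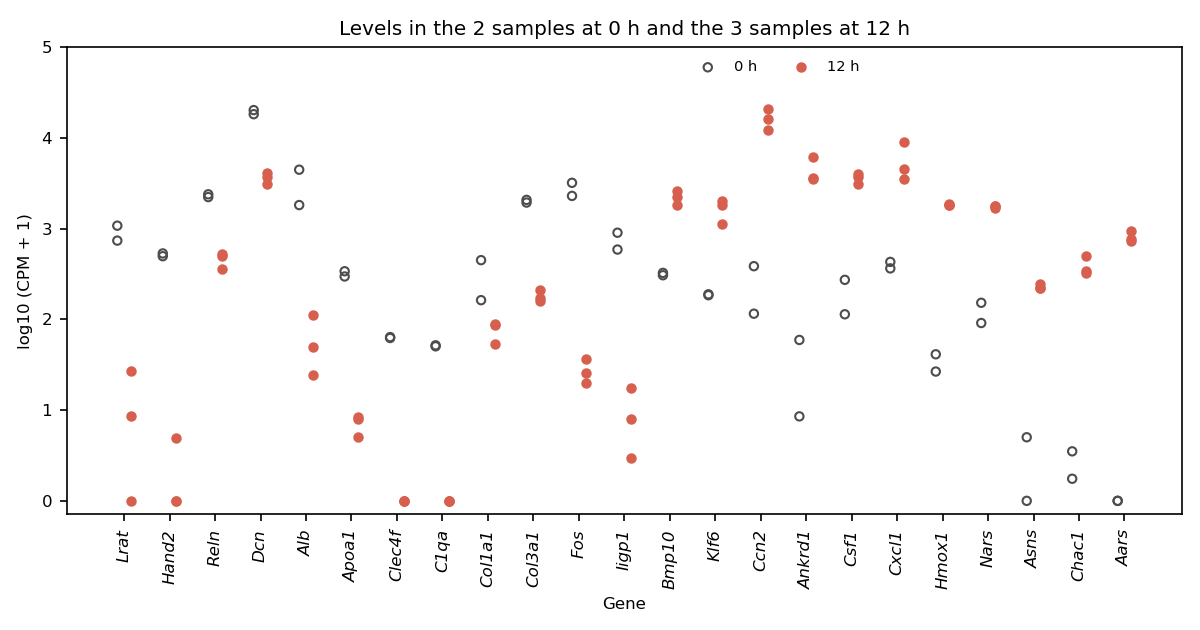
Level of 23 genes in every sample, as log10 of CPM plus 1, with open circles for the 2 samples at 0 h and filled circles for the 3 at 12 h. Clec4f drops to 0 and Hand2 to or near 0. Lrat and Alb fall far, and Alb, Dcn and Reln stay countable in every 12 h sample. Aars, Chac1 and Asns start at or near 0 and end far above it, and Ankrd1 rises from a low level.

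Ranked by fitted log2 fold change, the first 10 rises among genes averaging at least 50 CPM without overlap all started from 0 counts in both 0 h samples, where the fitted value depends on the prior count. Chac1, counted at both times, was 264-fold higher, above the lower bounds of 9 of these 10. Aars, cytosolic alanyl-tRNA synthetase (chromosome 8, 111033144 to 111057664, plus strand, mm10), measured 0 in both samples at 0 h and 763, 935 and 731 CPM at 12 h (at least 538-fold higher, adjusted p = 0.000111). Ppme1, a phosphatase methylesterase (chromosome 7, 100326737 to 100372307, minus strand), measured 0 in both samples at 0 h and 158, 228 and 249.7 CPM at 12 h (at least 140.5-fold higher, adjusted p = 1.67e-08). Supt16, a subunit of the FACT histone chaperone (chromosome 14, 52160414 to 52197416, minus strand), measured 0 in both samples at 0 h and 180.4, 126 and 192 CPM at 12 h (at least 110.3-fold higher, adjusted p = 4.87e-08). The neutrophil chemokine Cxcl5 (0 against 329.9, 61.2 and 64.2 CPM), the cytokine Lif (0 against 155, 67 and 148 CPM), sphingosine kinase Sphk1 (0 against 126, 94.6 and 139 CPM) and endothelin-1 (Edn1, 0 against 134, 119 and 65.6 CPM) followed, with the ribosome factor Mak16 (0 against 128, 141 and 169.6 CPM), the AP-1 repressor Jdp2 (0 against 96.1, 118 and 106 CPM) and the serine synthesis enzyme Phgdh (0 against 109, 79.4 and 121 CPM). Aars and Supt16, like Becn1, serve every cell, and 0 counts in both 0 h samples do not show that their transcripts were absent. How reads were assigned to genes is not given in the sources used here, and its part in these rises from 0 was not tested.

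In the same ranking the first 10 falls ended at 0 counts in all 3 samples at 12 h, and Hand2, with a count left, was 382-fold lower, above the bounds of 5 of them. The antisense transcript Gm26903 (chromosome 9, 75897843 to 76015192, minus strand) measured 564 and 566 CPM at 0 h and 0 in all 3 samples at 12 h (at least 813-fold lower, adjusted p = 0.00964), and whether the authors counted by strand is not given in the sources used here. A230050P20Rik (chromosome 9, 20868642 to 20874307, plus strand) measured 525 and 395 CPM at 0 h and 0 in all 3 samples at 12 h (at least 662-fold lower, adjusted p = 0.00061). Gdf10 (chromosome 14, 33923587 to 33937983, plus strand) was at least 555-fold lower. Laminin α1 (Lama1, 177 and 189 against 0 CPM), the neuronal membrane protein Pianp (285 and 328 against 0 CPM) and the nuclear receptor gene Nr1h5 (137 and 136 against 0 CPM) also belonged to this set, together with Clec3b, Heyl and the hepatocyte genes Ambp and Mup17 (355 and 387 against 0 CPM). Ambp and the Mup genes are made by hepatocytes. The 20 genes of both sets had 0 counts in between 2 and 13 of the 19 libraries of the time course.

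Genes of amino acid supply and of tRNA charging rose together. ATF4 is the transcription factor that cells translate when eIF2α is phosphorylated, and it drives amino acid transporters, serine and asparagine synthesis, and tRNA synthetases. Of 29 tested genes of the amino acid response, 24 rose (median log2 fold change 5.50, or 4.06 with genes at 0 counts set to their bound). Of 20 cytosolic tRNA synthetases, 16 rose, with a median of 3.20. Against a background of 8.60% of all genes, these were 82.8% and 80.0% of the tested members. The motif that ATF4 binds with C/EBP partners, searched as TGATGNAAN on both strands in the 250 bases upstream of the RefSeq start, lay in 7 of the 28 amino acid response genes and 3 of the 12 tRNA synthetases with a promoter entry, and in 3.89% of 27025 promoters. The stretches around it are shown for 4 genes that rose, read 5′ to 3′ on the strand of the gene from RefSeq GRCm38.p6, with every match in capitals. They lie at chr2:119350998-119351106 (plus strand) for Chac1, chr6:7693210-7693282 (minus strand) for Asns, chr3:50443621-50443729 (minus strand) for Slc7a11 and chr8:111033679-111033787 (plus strand) for Aars. The Aars stretch and the Asns match lie inside the span of the gene in GENCODE, the annotation used for symbols. For these 2 genes, upstream holds for the RefSeq start only.
Chac1: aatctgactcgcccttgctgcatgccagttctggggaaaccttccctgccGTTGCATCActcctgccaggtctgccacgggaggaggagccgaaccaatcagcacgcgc
Asns: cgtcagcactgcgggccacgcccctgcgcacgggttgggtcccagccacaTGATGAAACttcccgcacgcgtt
Slc7a11: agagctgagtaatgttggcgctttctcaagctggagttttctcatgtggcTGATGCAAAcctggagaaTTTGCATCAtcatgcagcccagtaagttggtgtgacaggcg
Aars: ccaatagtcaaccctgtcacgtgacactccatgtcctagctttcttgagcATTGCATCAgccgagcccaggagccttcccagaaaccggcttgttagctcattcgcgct

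In Asns the match reads on the strand of the gene, in Chac1 and Aars on the opposite strand, and the Slc7a11 stretch holds 1 match on each strand. Chac1, which degrades glutathione, rose from 0.752 and 2.51 to 341, 497 and 322 CPM (log2 fold change 8.04 ± 0.69 (SE), adjusted p = 9.76e-07). Asns, asparagine synthetase, rose from 0 and 4.02 to 223, 245 and 222 CPM (log2 fold change 7.09 ± 1.26 (SE), adjusted p = 0.000949). Slc7a11, the cystine importer, rose from 0.251 and 2.51 to 81.3, 48.2 and 138 CPM (log2 fold change 6.11 ± 1.51 (SE), adjusted p = 0.0114). All 3 started within a few CPM of 0 and stood above both 0 h samples in every 12 h sample.

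Serine and one-carbon enzymes went along. Psat1 rose from 1.00 and 6.53 to 392, 508 and 544 CPM (log2 fold change 7.16 ± 0.88 (SE), adjusted p = 3.44e-05) and the mitochondrial folate enzyme Mthfd2 from 1.25 and 11 to 747, 666 and 945 CPM (log2 fold change 7.14 ± 0.64 (SE), adjusted p = 1.57e-06). The pseudokinase Trib3 (0 against 103, 86.8 and 108 CPM) and the proline synthesis gene Aldh18a1 (0 against 69, 99.2 and 87.5 CPM) had 0 counts at 0 h. The leucine transporter Slc7a5 rose from 5.27 and 2.01 to 366, 431 and 609 CPM (log2 fold change 6.91 ± 0.47 (SE), adjusted p = 1.4e-07). Atf4 itself stood at 183 and 119.5 CPM at 0 h and 1410.2, 1177 and 1173 CPM at 12 h (log2 fold change 3.05 ± 0.30 (SE), adjusted p = 2.97e-06). Ppp1r15a, which encodes the eIF2α phosphatase subunit GADD34, just missed the fold limit (785 and 564 against 1236, 1252 and 1450.4 CPM, adjusted p = 0.0467). Of the synthetases, asparaginyl (Nars, 90.02 and 151 against 1748, 1763 and 1678 CPM), glycyl (Gars, 26.1 and 42.2 against 461, 406 and 483 CPM) and arginyl (Rars, 89 and 0 against 621, 758 and 740.3 CPM) showed the same order of groups, and phenylalanyl Farsb did not pass (26.6 and 59.3 against 193, 122.6 and 182 CPM, adjusted p = 0.222).

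Ribosome production and translation rose on a broad front. Of 34 genes of Myc and ribosome biogenesis, 30 rose (median log2 fold change 2.78), and all 34 lay higher in every 12 h sample than in either 0 h sample. Myc, the transcription factor of growth, measured 15 and 24.6 CPM at 0 h and 102, 608 and 438 CPM at 12 h (log2 fold change 4.28 ± 0.84 (SE), adjusted p = 0.00215). The 40S processing factor Tsr1 rose from 6.27 and 8.03 to 237, 303 and 223 CPM (log2 fold change 5.16 ± 0.34 (SE), adjusted p = 1.36e-07). Spermidine synthase, Srm, rose from 0 and 29.6 to 252, 281 and 316 CPM, and Rrp9, of the U3 particle, from 1.00 and 0 to 139, 104 and 38.3 CPM. Noc2l did not pass (0 and 65.3 against 298, 399 and 356 CPM, adjusted p = 0.334), and both it and Srm had no count in the 0 h sample of M2. The E-box CACGTG, which Myc binds, lay in 1 of 27 promoters of these genes and in 6.86% of all promoters.

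Of 28 translation factors, 24 rose. The eIF2β subunit Eif2s2 measured 626 and 659 CPM at 0 h and 4582, 4373 and 4257 CPM at 12 h (log2 fold change 2.78 ± 0.22 (SE), adjusted p = 5.84e-07). The eIF4E repressor Eif4ebp1 measured 28.1 and 26.6 CPM at 0 h and 379, 385 and 376 CPM at 12 h (log2 fold change 3.79 ± 0.32 (SE), adjusted p = 8.56e-07). Eif5a rose from 215 and 338 to 1519, 1322 and 1699.7 CPM. Eef1a1 did not pass (2018 and 1455 against 2163, 3227 and 3809 CPM, adjusted p = 0.0439). Of 78 cytosolic ribosomal protein genes, 66 lay higher in all 12 h samples, 59 reached an unadjusted p under 0.05 and 30 passed, the median log2 fold change being 0.89. DESeq2, in which the median log2 fold change over all genes was -0.146, called 14. Their summed level went from 36789 and 37930 CPM to between 57015 and 65975 CPM, 165% of the 0 h mean. Rps2 (95.3 and 69.8 against 358, 283 and 253 CPM) and Rpl18 (109 and 239.5 against 619.6, 509.6 and 687 CPM) rose the furthest, and Rps29 did not pass (2594 and 2880.3 against 3029, 2122 and 2064 CPM). Ribosomal protein genes have many processed pseudogenes that can share their reads, and 57 of 1099 processed pseudogenes tested were also called higher against 8 lower.

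**Figure D3:**
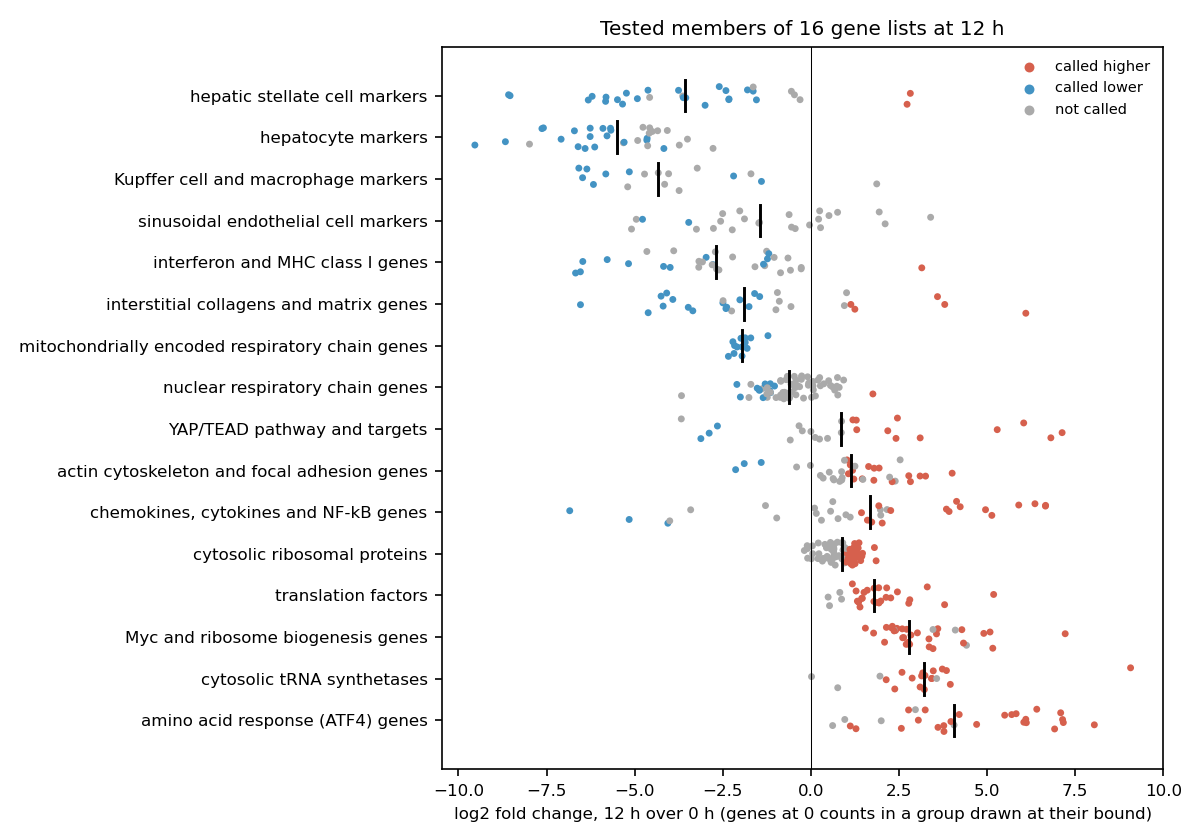
Log2 fold change, 12 h over 0 h, of each tested member of 16 gene lists, with genes at 0 counts in one group drawn at their bound. Colours mark called higher, called lower and not called. The amino acid response, tRNA synthetase and ribosome biogenesis lists lie to the right of 0, and the hepatocyte, Kupffer, stellate and mitochondrially encoded lists to the left.

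Mitochondrially encoded transcripts went the opposite way. All 13 protein-coding genes of the mitochondrial genome fell (median log2 fold change -1.95). The complex I subunit mt-Nd1 measured 13375 and 12451 CPM at 0 h and 2685, 2806 and 3139 CPM at 12 h (log2 fold change -2.17 ± 0.16 (SE), adjusted p = 3.19e-07). The cytochrome oxidase subunit mt-Co2 measured 7381 and 5955 CPM at 0 h and 1270.3, 1486 and 1653 CPM at 12 h (log2 fold change -2.18 ± 0.18 (SE), adjusted p = 6.99e-07). Together they made up 83060 to 92037 CPM at 0 h, or 7.98% to 8.22% of raw counts, and 19409 to 21914 CPM at 12 h. A large part of the drop had come by 3 h, when a median of 43.9% was left. Both mitochondrial ribosomal RNAs also fell. 

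Nuclear genes of the respiratory chain changed less. Of 75 tested, 12 fell and 1 rose, with a median of -0.61, and the 12 became 5 without the 0 h sample of M3. The ATP synthase subunit Atp5k (217 and 249.6 against 66.9, 66.8 and 29.4 CPM) and the complex I subunit Ndufb3 (239 and 198 against 51.4, 73.6 and 39 CPM) fell. Cytochrome c, Cycs, was the one that rose (49.9 and 55.2 against 161, 197 and 175 CPM, 3.38-fold higher). Atp5g3 did not pass (735 and 711 against 645, 643 and 517 CPM). Of 24 fatty acid oxidation genes 5 fell, led by Acaa2 (238 and 201 against 5.56, 0 and 2.13 CPM) and the carnitine palmitoyltransferase Cpt1a (55.2 and 77.8 against 2.08, 3.73 and 3.87 CPM). The 5 became 2 without the 0 h sample of M3, 3 without that of M2 and 2 without the 12 h sample of M1.

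Of 19 glycolysis genes, 6 rose: the glucose transporter Slc2a1 (9.78 and 13.1 against 158, 214 and 172 CPM), hexokinase Hk2 (37.4 and 41.7 against 789, 604 and 548 CPM, 16.4-fold higher), the regulatory kinase Pfkfb3 (18.3 and 18.1 against 51.9, 43.2 and 55.1 CPM), phosphoglycerate kinase Pgk1 (30.1 and 23.1 against 106, 105.2 and 87.5 CPM) and the monocarboxylate transporters Slc16a1 (2.01 and 2.51 against 49.1, 72.1 and 56.3 CPM) and Slc16a3 (0 against 8.34, 2.88 and 1.60 CPM). The enzymes Aldoa (243 and 177 against 269, 208 and 164 CPM), Gapdh (49.9 and 67.8 against 109, 68.7 and 70.1 CPM) and Ldha (128 and 179.8 against 97.8, 83.4 and 112 CPM) did not pass. Cholesterol synthesis was mixed, with 4 of 24 genes higher, among them Sqle (0 against 27.1, 8.48 and 24.7 CPM), and 2 lower, Dhcr7 (20.1 and 15.1 against 0.463, 1.36 and 0.267 CPM) and Nsdhl (12.8 and 9.54 against 0 CPM). The 4 became 1 without the 0 h sample of M3, 0 without that of M2 and 2 without the 12 h sample of M2.

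Redox, chaperone and damage genes rose selectively. Of 29 genes of the NRF2 response, 11 rose and 2 fell. Heme oxygenase, Hmox1, measured 25.6 and 40.2 CPM at 0 h and 1839, 1817 and 1820.4 CPM at 12 h (log2 fold change 5.81 ± 0.40 (SE), adjusted p = 1.43e-07). Thioredoxin reductase, Txnrd1, measured 120.4 and 79.3 CPM at 0 h and 1269, 1701 and 1429 CPM at 12 h (log2 fold change 3.87 ± 0.31 (SE), adjusted p = 5.83e-07). The glutathione synthesis subunit Gclm rose from 17.8 and 8.03 to 231, 215 and 230.2 CPM, whereas the glutathione transferase Gsta4 (39.4 and 54.2 against 0 CPM) and catalase (Cat, 119 and 172 against 63.2, 58.7 and 30.2 CPM) fell. The ferritin heavy chain Fth1 did not pass (1649.9 and 1729 against 1794, 1957 and 2192 CPM).

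Of 29 cytosolic chaperones and heat shock genes, 15 rose, including subunits of the CCT folding ring such as Cct2 (106 and 76.3 against 353, 499 and 483 CPM) and the mitochondrial chaperonin Hspd1 (77.2 and 146 against 608, 524 and 683 CPM), and Dnaja1 (449 and 226 against 188, 147 and 59.5 CPM) and Dnajb1 (119 and 77.3 against 37.5, 53.6 and 25.4 CPM) fell. Of 27 endoplasmic reticulum genes, 7 rose (4 without the 0 h sample of M2) and Pdia3 fell (432 and 545 against 185, 283 and 217 CPM). Hspa5, the chaperone BiP, went from 746 and 1296 to 4208, 6067 and 5731 CPM (log2 fold change 2.39 ± 0.39 (SE), adjusted p = 0.000516), and the stress sensors Atf6 (26.6 and 39.2 against 266, 328 and 294 CPM) and Ern1 (20.1 and 13.1 against 69.95, 154 and 165 CPM) rose. Hsp90b1 did not pass (906 and 864 against 447, 986 and 764 CPM). Of 31 proteasome subunits, 6 rose and 15 reached an unadjusted p under 0.05, with Psmd11 (94 and 101 against 299, 261 and 243 CPM) and Psmd3 (53.9 and 65.8 against 226, 125 and 159 CPM) among the 6. Without the 0 h sample of M2, 2 subunits remained called.

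Of 29 cell cycle entry and p53 target genes, 10 rose. The CDK inhibitor Cdkn1a measured 74.2 and 59.3 CPM at 0 h and 798, 445 and 421 CPM at 12 h (log2 fold change 3.05 ± 0.32 (SE), adjusted p = 6.56e-06). Cdkn2b rose from 0 to 20.2, 21.2 and 10.9 CPM, and the p53-induced Aen from 8.53 and 31.6 to 182, 100.2 and 116 CPM. Ccnd2 did not pass (1417 and 1337 against 1568, 1620.3 and 1527 CPM). Replication and mitosis genes gave no common direction: of 29, Pcna rose (73 and 41.2 against 88.7, 171 and 157 CPM) and 3 fell, Top2a (10.03 and 36.2 against 0.695, 1.02 and 0.934 CPM) and, through 1 sample at 0 h each, Cdk1 (0 and 36.2 against 0 CPM) and Gins2 (0 and 85.4 against 0 CPM).

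More matrix genes fell than rose. Of 28 interstitial collagen and matrix genes, 15 fell and 5 rose, or 3 without the 0 h sample of M2. The α1 chain of collagen I, Col1a1, measured 161 and 447 CPM at 0 h and 52.1, 87.5 and 85.5 CPM at 12 h (log2 fold change -2.02 ± 0.36 (SE), adjusted p = 0.00104). Its partner Col1a2 measured 566 and 696 CPM at 0 h and 35.2, 50.9 and 99 CPM at 12 h (log2 fold change -3.35 ± 0.37 (SE), adjusted p = 1.24e-05). Col3a1 measured 1932 and 2067 CPM at 0 h and 157, 172 and 208 CPM at 12 h (log2 fold change -3.48 ± 0.37 (SE), adjusted p = 6.47e-06). No 12 h sample of these 3 genes reached the lower 0 h sample. Lumican (Lum, 588 and 445 against 38.5, 37.7 and 8.94 CPM), fibronectin (Fn1, 238 and 345 against 51, 102 and 136 CPM) and the collagen VI chain Col6a3 (242 and 434 against 16, 22.6 and 14.5 CPM) fell too. Tenascin-C, Tnc, an adhesion-modulating glycoprotein, rose from 15.5 and 53.2 to 1187, 2525 and 3222 CPM (log2 fold change 6.10 ± 0.61 (SE), adjusted p = 3.71e-06), thrombospondin-1 (Thbs1) from 40.1 and 23.6 to 333, 266 and 740.2 CPM, and versican (Vcan) from 0 to 15.5, 11.9 and 27.1 CPM. Sparc fell short of the fold limit (3163 and 3379 against 1785, 1828 and 1659 CPM, adjusted p = 0.000458). At 3 h, 12 of the 15 that fell stood at 75% or more of their 0 h level, with an upper quartile of 131%, whereas Col3a1 averaged 941 CPM at 3 h against 1999 CPM at 0 h.

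Of 15 basement membrane genes, the type IV collagens Col4a1 (929 and 1093 against 3177, 3582 and 2949.8 CPM, 3.20-fold higher) and Col4a2 (406 and 518 against 1776, 1255 and 1356 CPM, 3.17-fold higher) rose, and Lama1, Col18a1 (39.6 and 50.7 against 0 CPM), Hspg2 (225 and 149 against 47.5, 44.9 and 72.5 CPM), Lamb1 (516 and 519.7 against 177, 189 and 162 CPM) and Nid1 (768 and 653 against 167, 333 and 242 CPM) fell. Among 25 proteases and inhibitors, 6 rose and 5 fell. Timp3, a tissue inhibitor of metalloproteinases, measured 18.6 and 346 CPM at 0 h and 3261, 5717 and 6043 CPM at 12 h (log2 fold change 4.79 ± 0.82 (SE), adjusted p = 0.000728). The urokinase receptor Plaur (0 and 3.01 against 145, 194 and 239 CPM) and collagenase Mmp13 (1.00 and 10.04 against 253, 256 and 284 CPM) started near 0. Timp2 fell from 1082 and 975 to 161, 133 and 166 CPM (log2 fold change -2.75 ± 0.21 (SE), adjusted p = 4.8e-07), Mmp11 from 56.9 and 60.8 to 0 CPM and Adamts5 from 125 and 98.4 to 16.9, 28 and 15.9 CPM. The 5 that fell became 2 or 3 without the 0 h sample of M3 or any one 12 h sample.

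Cytoskeletal and YAP target genes rose, with the smooth muscle actin gene outside that set. Of 36 actin and focal adhesion genes, 16 rose and 27 lay higher in every 12 h sample, against 8.60% and 20.3% of all genes tested. The 3 that fell (8.33%) were near the 9.10% of all genes. α-Actinin-1 (Actn1) measured 210.4 and 480.0 CPM at 0 h and 2383, 3175 and 3292 CPM at 12 h (log2 fold change 3.10 ± 0.33 (SE), adjusted p = 8.54e-06). Transgelin (Tagln) measured 118 and 278 CPM at 0 h and 963, 1262 and 1832 CPM at 12 h (log2 fold change 2.78 ± 0.41 (SE), adjusted p = 0.000191). Tes, of focal adhesions, rose from 12.8 and 8.03 to 126, 204 and 179.7 CPM. Acta2, α-smooth muscle actin, the usual marker of the myofibroblast, had overlapping groups at 51.7 and 138 CPM at 0 h and 82.7, 78.2 and 118 CPM at 12 h (log2 fold change -0.01 ± 0.42, adjusted p = 1). Myl9 (64.4 and 153 against 26.2, 22.4 and 25.2 CPM), Myh10 (102 and 51.7 against 18.1, 23.6 and 20.4 CPM) and Tpm2 (34.4 and 73.3 against 19.7, 18.8 and 22 CPM), of the contractile apparatus, fell. Of 20 tubulins and intermediate filaments 4 rose, with Tuba1c (18.1 and 74.8 against 673, 460.1 and 482 CPM) and Tubb6 (39.1 and 42.2 against 334, 346 and 369 CPM) beside Nes and Lmnb2 (0 against 29.9, 29.3 and 43.6 CPM), and Des and Tuba1a (227 and 401 against 133, 102 and 124 CPM) fell. Vim did not pass (371 and 524 against 557, 1008 and 1118 CPM, adjusted p = 0.0538).

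YAP and TAZ are mechanosensitive coactivators that work through TEAD factors. Of 24 pathway genes and targets, 11 rose and 3 fell. Ccn2, connective tissue growth factor, measured 114 and 384 CPM at 0 h and 12216, 16086 and 20611 CPM at 12 h (log2 fold change 6.04 ± 0.55 (SE), adjusted p = 1.74e-06). Ankrd1 measured 7.52 and 58.2 CPM at 0 h and 3629, 3548 and 6214 CPM at 12 h (log2 fold change 7.13 ± 0.76 (SE), adjusted p = 7.44e-06). Ccn1 measured 590.5 and 297 CPM at 0 h and 1368, 2554 and 3385 CPM at 12 h (log2 fold change 2.45 ± 0.44 (SE), adjusted p = 0.00107). The 0 h sample of M3 held more Ccn2 and Ankrd1 than that of M2, and every 12 h sample lay above both. Yap1 did not pass (224 and 203 against 156, 220.0 and 166 CPM, adjusted p = 0.415), Arhgef17 fell (250.5 and 228 against 26.9, 26.6 and 60.4 CPM) and Ptpn14 fell (13.8 and 37.2 against 5.56, 1.87 and 1.33 CPM). The TEAD motif GGAATG lay in 10 of 19 promoters of the list and in 14.4% of all promoters.

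TGF-β and BMP genes moved in both directions. TGF-β drives matrix production in HSCs, and BMPs act through the same SMAD relay. Of 34 genes, 6 rose and 11 fell. The ligands Inhba (65.9 and 33.6 against 1008, 1131 and 1431 CPM, log2 fold change 4.57 ± 0.34 (SE), adjusted p = 3.21e-07), Tgfb3 (9.78 and 11 against 101, 285 and 377 CPM), Tgfb2 (8.53 and 6.03 against 54.2, 65.5 and 69.7 CPM) and Bmp6 (0 against 19.7, 19.8 and 31.5 CPM) rose, as did the repressor Tgif1 (0 and 13.6 against 168, 217 and 134 CPM). Another ligand, Bmp4 (168 and 230.0 against 33.4, 58.7 and 40.4 CPM), fell. The receptors Tgfbr1 (58.4 and 48.2 against 16.7, 14.8 and 21.7 CPM), Tgfbr2 (141 and 148 against 19.9, 15.9 and 3.20 CPM) and Tgfbr3 (459 and 416 against 75.7, 63.3 and 89.3 CPM) fell, together with the BMP target genes Id2 (235 and 196 against 25.7, 25.8 and 43.1 CPM) and Id3 (2478 and 1722 against 228, 232 and 133 CPM) and the TGF-β-induced Tgfbi (1567 and 1975 against 155, 162 and 184 CPM). Tgfb1 did not pass (16 and 22.1 against 29.6, 46 and 14.4 CPM, adjusted p = 0.581).

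Among 27 receptor tyrosine kinase genes, ligands and feedback genes, 7 rose and 7 fell. The EGF receptor ligands Ereg (10.03 and 17.1 against 747, 734 and 920.4 CPM, log2 fold change 5.91 ± 0.32 (SE), adjusted p = 3.34e-08) and Hbegf (7.02 and 17.6 against 208, 142 and 233 CPM) rose, with Pdgfa (70.7 and 69.3 against 447, 371 and 448 CPM), Vegfa (24.8 and 25.1 against 96.1, 218 and 185 CPM) and the receptors Egfr (52.4 and 52.7 against 233, 332 and 269.7 CPM) and Fgfr1 (47.9 and 41.7 against 204, 289 and 266 CPM). Hepatocyte growth factor (Hgf) measured 1478 and 1056 CPM at 0 h and 149, 177 and 148 CPM at 12 h (log2 fold change -3.00 ± 0.25 (SE), adjusted p = 8.56e-07). Fgfr2 measured 1271 and 1416 CPM at 0 h and 29.9, 9.50 and 20.5 CPM at 12 h (log2 fold change -6.08 ± 0.43 (SE), adjusted p = 1.85e-07). The PDGF receptors Pdgfra (393 and 266 against 41.9, 49.7 and 67 CPM) and Pdgfrb (542 and 466 against 172, 181 and 133 CPM), through which HSCs answer their main mitogen, fell. Igf1r did not pass (244 and 239 against 229.8, 299 and 259.9 CPM). The 7 that fell became 4 without either 0 h sample, and 4 without the 12 h sample of M1 or M2.

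Receptors that set the tone of HSCs mostly fell or did not pass. Of 19 vasoactive and neural receptor genes, 9 fell and 3 rose. The endothelin receptor Ednra measured 529 and 524 CPM at 0 h and 47.9, 115 and 38.3 CPM at 12 h (log2 fold change -2.97 ± 0.56 (SE), adjusted p = 0.0015). The angiotensin receptor Agtr1a measured 648 and 459 CPM at 0 h and 18.3, 12.6 and 36.7 CPM at 12 h (log2 fold change -4.61 ± 0.54 (SE), adjusted p = 2.16e-05). Adra2b (281 and 319 against 0, 1.19 and 3.87 CPM) and Ngfr (428 and 259 against 17.4, 16.5 and 8.14 CPM), the low-affinity neurotrophin receptor, fell as well. Edn1 rose from 0 counts, and Npr3 (77 and 54.7 against 195, 411 and 339 CPM) and Adra1b (23.8 and 42.7 against 97.1, 119 and 145 CPM) rose. S1pr3 did not pass (185 and 102 against 161, 343 and 217 CPM).

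Chemokine and NF-κB genes rose while interferon genes fell. NF-κB is the transcription factor that inflammatory cues release in HSCs. Of 34 chemokine, cytokine and NF-κB genes, 16 rose and 3 fell. The κB motif, searched on both strands as GGGA and TTTCC with 1 free base between, lay in 6 of 29 promoters of the list and in 0.414% of all promoters. It is shown in capitals for Cxcl1 (chr5:90891124-90891233, plus strand), Cxcl2 (chr5:90903752-90903861, plus strand) and Csf1 (chr3:107760564-107760673, minus strand), whose levels follow.
Cxcl1: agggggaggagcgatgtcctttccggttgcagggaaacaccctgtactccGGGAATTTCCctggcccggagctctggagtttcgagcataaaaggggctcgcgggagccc
Cxcl2: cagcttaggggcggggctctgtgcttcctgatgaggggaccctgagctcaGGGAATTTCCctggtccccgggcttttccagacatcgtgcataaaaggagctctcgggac
Csf1: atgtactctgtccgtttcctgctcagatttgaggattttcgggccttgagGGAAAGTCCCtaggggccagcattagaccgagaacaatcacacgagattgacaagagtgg

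The neutrophil chemokine Cxcl1 measured 363 and 428 CPM at 0 h and 8989, 3471 and 4577 CPM at 12 h (log2 fold change 3.84 ± 0.49 (SE), adjusted p = 5.13e-05). Cxcl2 measured 83 and 97.4 CPM at 0 h and 5131, 1916 and 2445 CPM at 12 h (log2 fold change 5.13 ± 0.69 (SE), adjusted p = 7.89e-05). Csf1, the growth factor of macrophages, measured 113 and 271 CPM at 0 h and 3127, 3706 and 3979 CPM at 12 h (log2 fold change 4.24 ± 0.39 (SE), adjusted p = 1.74e-06). For Cxcl1, Cxcl2 and Cxcl5 the 12 h sample of M1 was the highest. The groups stayed clear of each other in Cxcl1, Cxcl2 and Csf1. The monocyte chemokines Ccl2 (220.2 and 154 against 6120.1, 5329 and 5962 CPM, log2 fold change 4.95 ± 0.36 (SE), adjusted p = 2.73e-07) and Ccl7 (7.77 and 15.1 against 727, 556 and 714 CPM) and the fibrogenic cytokine Il11 (1.00 and 4.02 against 219.8, 238 and 252 CPM) rose too, and so did the NF-κB subunit genes Nfkb2 (0 and 24.6 against 302, 98.2 and 208 CPM) and Relb (18.1 and 50.7 against 118, 136 and 135 CPM) and the inhibitor Tnfaip3 (13.5 and 7.03 against 115, 185 and 177 CPM). Il1b, a macrophage cytokine, fell from 65.2 and 94.4 to 0 CPM, and the adhesion gene Icam1 from 140.4 and 51.7 to 2.78, 0 and 5.07 CPM. Cxcl10, which interferons induce, fell from 632 and 438 to 37.8, 23.4 and 35.1 CPM (log2 fold change -4.06 ± 0.65 (SE), adjusted p = 0.000379). Nfkbia had overlapping groups (1509 and 619.6 against 3553, 1921 and 1447 CPM, adjusted p = 0.133).

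Of 32 interferon and MHC class I genes, 12 fell and 25 lay below both 0 h samples in all 3 samples at 12 h. Cd274 passed as higher with overlapping samples (0 against 20.2, 19.8 and 0 CPM), and was not called with the M number as a block. An interferon response-like element, GAAA repeated after 2 free bases on either strand, lay in 10 of 26 promoters of the list and in 3.46% of all promoters. It is shown in capitals for a pair that fell, Isg15 (chr4:156200837-156200946, minus strand) and B2m (chr2:122147498-122147607, plus strand). The Isg15 stretch holds 3 overlapping matches, in 1 run of capitals. The κB motif also lay in 1 of these 26 promoters, that of B2m, where it is left in lower case.
Isg15: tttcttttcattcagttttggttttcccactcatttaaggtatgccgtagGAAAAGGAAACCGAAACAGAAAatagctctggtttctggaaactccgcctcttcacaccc
B2m: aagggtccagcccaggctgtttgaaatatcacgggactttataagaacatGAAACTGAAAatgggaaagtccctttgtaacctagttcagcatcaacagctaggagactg

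The ubiquitin-like modifier Isg15 measured 153 and 220.4 CPM at 0 h and 81.3, 56.8 and 100.1 CPM at 12 h (log2 fold change -1.23 ± 0.41 (SE), adjusted p = 0.0557). B2m, the light chain of MHC class I, measured 5672 and 4832 CPM at 0 h and 1533, 2496 and 2853 CPM at 12 h (log2 fold change -1.20 ± 0.30 (SE), adjusted p = 0.0122). The interferon-inducible GTPase Iigp1 fell from 586 and 898 to 16.7, 6.95 and 2.00 CPM (log2 fold change -6.47 ± 0.88 (SE), adjusted p = 8.74e-05) and Irf1 from 983 and 602 to 78.8, 39 and 31.9 CPM (log2 fold change -3.99 ± 0.39 (SE), adjusted p = 3.08e-06). The immunoproteasome subunits Psmb9 (50.9 and 91.4 against 0 CPM) and Psmb10 (108 and 128 against 3.94, 0 and 0 CPM) fell. Psmb8 passed with an overlap (0 and 116 against 0, 0 and 2.94 CPM), and without the 0 h sample of M3 its log2 fold change turned to 5.38 (adjusted p = 0.547). H2-D1 missed the fold limit (4104 and 3363 against 2207, 2284 and 2640.3 CPM, adjusted p = 0.0112), and MHC class I genes share sequence with one another. At 3 h the 12 genes stood at a median of 91.1% of their 0 h level with quartiles of 53.4% and 171%, and Irf1 (792 CPM at 0 h and 2034 CPM at 3 h on average) and Iigp1 (742 CPM at 0 h and 1593 CPM at 3 h) were higher at 3 h than at 0 h, with no test.

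Immediate early genes, which tissue dissociation is known to switch on within minutes, moved in both directions. Of 30 tested, 12 fell and 5 rose. Fos measured 3189 and 2287 CPM at 0 h and 24.3, 18.7 and 35.1 CPM at 12 h (log2 fold change -6.71 ± 0.40 (SE), adjusted p = 4.87e-08). Fosb measured 2631 and 1442 CPM at 0 h and 21.3, 18.1 and 8.81 CPM at 12 h (log2 fold change -6.99 ± 0.82 (SE), adjusted p = 2.23e-05). Nr4a1 (1161 and 597 against 59.99, 114 and 97 CPM), Btg2 (1693 and 915 against 158, 172 and 164 CPM) and Zfp36 (632 and 489 against 93.3, 87.5 and 66.9 CPM) fell. In each of these genes both 0 h samples lay above all 12 h samples. Klf6 measured 188 and 183 CPM at 0 h and 1119, 1817 and 1985 CPM at 12 h (log2 fold change 3.15 ± 0.32 (SE), adjusted p = 5.14e-06). Maff rose from 50.1 and 17.1 to 236, 351 and 366 CPM, with Myc. Klf2 (755 and 495 against 349, 471 and 501 CPM) and Atf3 (456 and 247 against 185, 352 and 277 CPM) did not pass.

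The last 5 lists had few members called, but the shares called lower all lay above the 9.10% of all genes tested. They ran from 11.8% of circadian clock genes to 35.7% of integrin subunits. Of the shares called higher, only the 23.5% of clock genes lay above the background of 8.60%. Of 17 circadian clock genes, 4 rose and 2 fell, with the repressors Nr1d1 (14.5 and 34.6 against 116, 117 and 66 CPM) and Nr1d2 (29.8 and 22.6 against 92, 94.5 and 101 CPM) higher and Bhlhe40 (448 and 171 against 28.5, 34.3 and 45 CPM) lower, and the hour of day of the samples is not given. The 2 that fell became 0 without the 0 h sample of M2 and 4 without the 12 h sample of M3. Of 26 cilium and Hedgehog genes 4 fell, the receptor pair Ptch1 (119 and 104 against 13, 6.95 and 3.74 CPM) and Smo (37.1 and 17.1 against 6.02, 1.36 and 0.534 CPM) with Evc (20.6 and 33.6 against 0.463, 0.678 and 0.534 CPM) and Ift20 (400.2 and 307 against 118, 150.1 and 112 CPM), and 2 remained without the 0 h or the 12 h sample of M2. Of 14 integrin subunits 5 fell, led by Itga8 (262 and 203 against 5.56, 37.3 and 0 CPM) and Itga1 (1451 and 925 against 128, 209 and 249 CPM), and 3 or 2 remained without the 0 h sample of M3 or M2. Itgb1 did not pass (1392 and 1162 against 1813, 2090.5 and 2024 CPM). Of 14 Notch genes 4 fell, including Hes1 (2584 and 2232 against 489, 239.6 and 198 CPM, log2 fold change -2.96 ± 0.40 (SE), adjusted p = 8.73e-05) and the ligand Dll4 (29.1 and 23.6 against 0 CPM), and the DNA-binding partner Rbpj rose (63.4 and 56.7 against 414, 349 and 305 CPM). The 4 became 2 without either 0 h sample and without the 12 h sample of M2 or M3. Of 28 lysosome and autophagy genes 7 fell, such as prosaposin (Psap, 994 and 1119 against 473, 305 and 244 CPM), and Sqstm1, the autophagy receptor p62, rose (222 and 373 against 1929.8, 1708 and 1407 CPM, log2 fold change 2.50 ± 0.25 (SE), adjusted p = 3.69e-06), with Becn1 (0 against 79.5, 111 and 104.9 CPM) at 0 counts at 0 h.

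**Figure D4:**
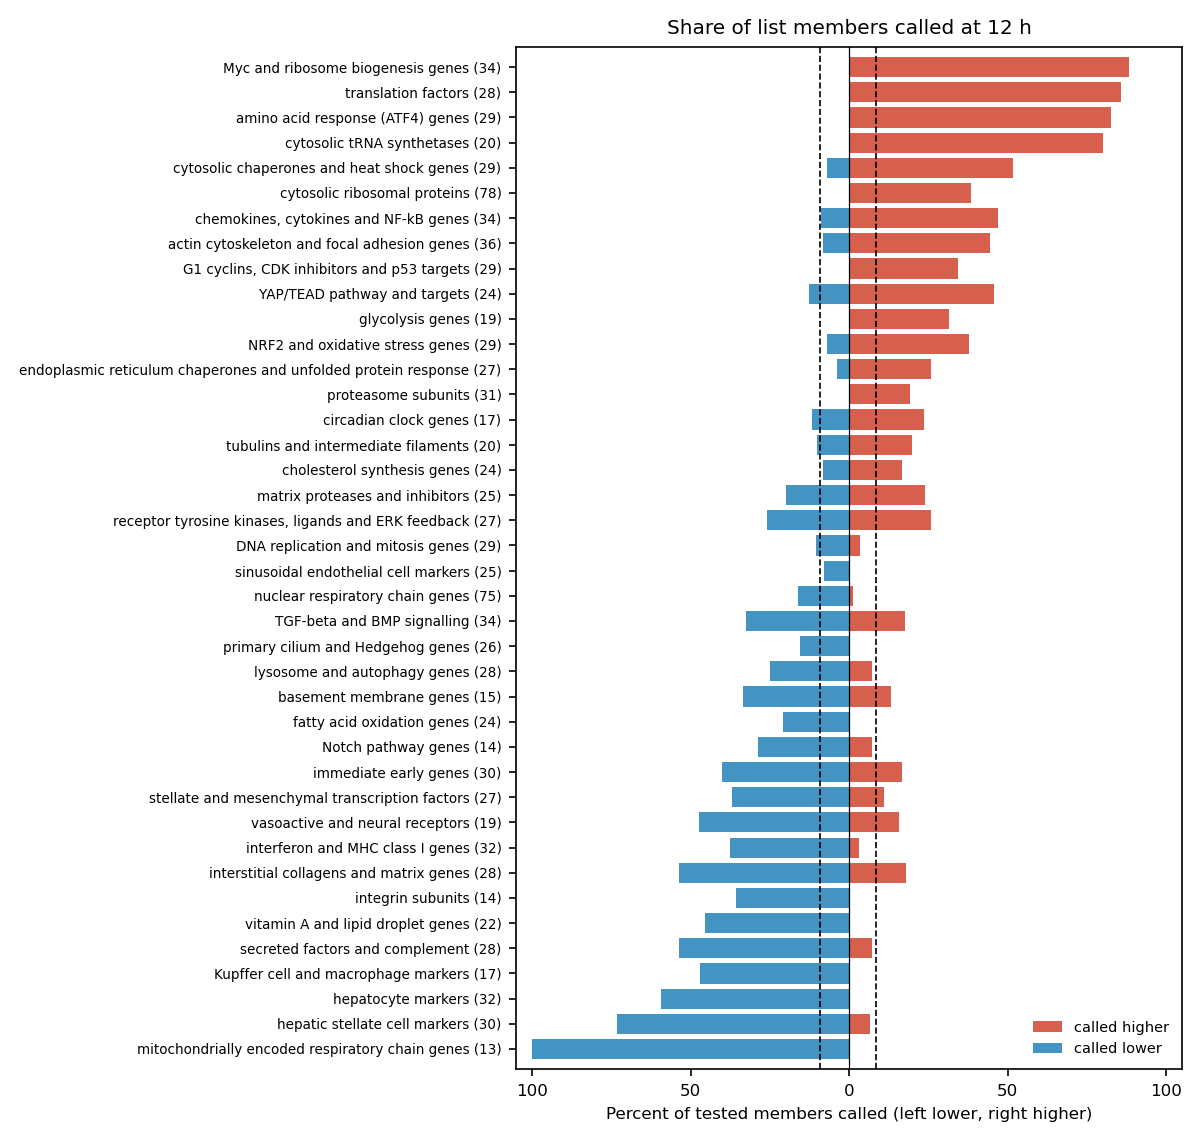
Percent of the tested members of each gene list that was called higher (right) or lower (left) at 12 h, with the number tested in brackets. The share over all genes tested is 8.60% higher and 9.10% lower. Ribosome biogenesis, translation factors, the amino acid response and tRNA synthetases have at least 80.0% of their members called higher, and all mitochondrially encoded genes are called lower.

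The gene lists of the study itself describe the same samples or other mice. Of 72 tested genes of its initiatory program 67 rose, but that list was chosen on this culture series and its count is not independent evidence of its direction. Of 142 tested genes of the fibrogenic program, drawn from HSCs of injured livers, 60 rose and 4 fell (median log2 fold change 1.98, or 1.43 with genes at 0 counts at their bound), and 39 genes belong to both lists. Of the 103 outside the initiatory list, 23 rose and 4 fell. Col1a1, Col1a2, Myh10 and Tpm2 were the 4 that fell. Of 657 tested genes higher in HSCs of healthy than of fibrotic and recovered livers, 193 fell and 21 rose. Genes of that list made up 14.01% of all that fell, and 14 of them are on the stellate list and 4 on a list of another liver cell. A median of 70.3% of the level was left at 3 h. Epor, the erythropoietin receptor (83.5 and 104 against 0 CPM) and Aard (97.3 and 126 against 0 CPM) were among those at 0 counts at 12 h, and the ribosome assembly ATPase Mdn1 (45.6 and 51.2 against 477, 442 and 422 CPM) was among those that rose. A further 993 genes that fell and 959 that rose were on none of the lists.

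Between samples of the same M number, 2621 of the 2680 genes called had the sign of the call in both M2 and M3, and 2612 had groups that did not overlap. The calls were made on these same samples, which largely sets both counts, and over all genes tested 20.3% lay higher and 22.9% lower without overlap. Across the 8559 genes averaging at least 10 CPM, the log2 changes of M2 and M3 correlated with r = 0.624 and 76.0% had the same sign. This is a correlation across genes, which are not independent replicates. M2 and M3 carry different dates, so these are also the values within a date. The stellate sum at 12 h was 22.4% of the 0 h sum in M2 and 24.3% in M3, and the hepatocyte sum was 2.79% and 2.35%.

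**Figure D5:**
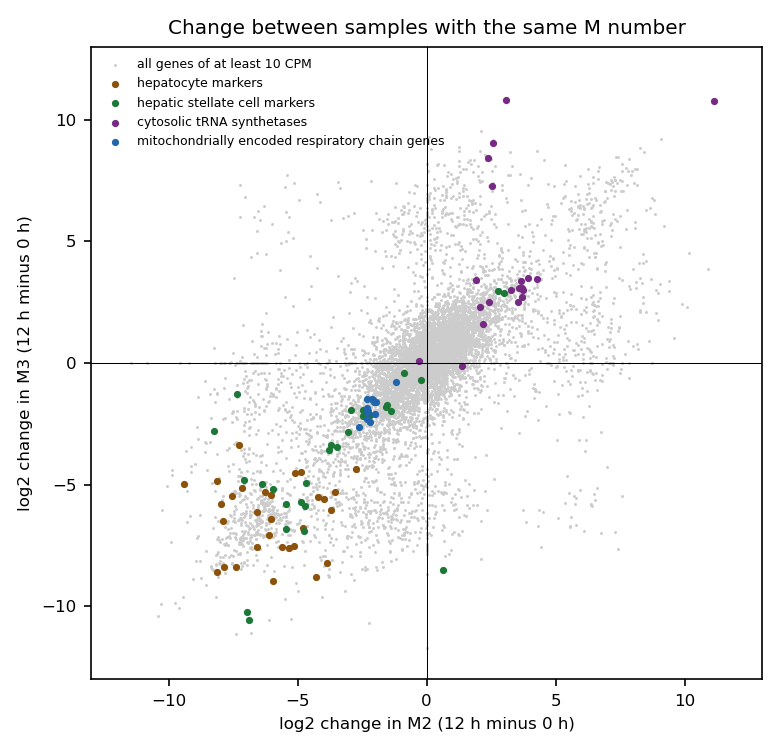
Log2 change from 0 h to 12 h in M2 (x axis) and M3 (y axis) for genes averaging at least 10 CPM over the 5 samples (grey), with members of selected lists in colour. The 8559 genes correlate with r = 0.624. Hepatocyte markers and most stellate markers lie low in both, and most tRNA synthetases lie high in both.

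Of 267 genes named, 229 had risen or fallen, and 55 of these lost the call, by adjusted p or by the fold limit, when at least 1 of the 5 samples was left out. Ttr, Hpd, Wnt2, C1qa, Hbb-bs, Hbb-bt, Hsd17b13, Mmp11, Nr1d1 and Slc16a3 lost it without any one of the 5. A single sample decided 16: the 0 h sample of M2 for Bhlhe40, Dnaja1, Dnajb1, Myh10, Nr4a1 and Slc7a11, the 0 h sample of M3 for Fn1, Mup20, Myl9, Npr3, Ptpn14, Top2a, Tpm2 and Tuba1a, and the 12 h sample of M1 for B2m and of M2 for Ets2. The adjusted p without that sample ran from 0.0188 for Ets2 to 0.341 for Dnaja1. Adh1, Becn1, Cat, Ccl5, Cd274, Cdk1, Cpt1a, Cyp26b1, Des, Dhcr7, Dll4, Gins2, Gsta4, Hba-a1, Hba-a2, Icam1, Isg15, Itga8, Nsdhl, Pcna, Pdia3, Plin3, Psmb10, Psmb8, Ptch1, Relb, Smo, Sqle and Tgfbr1 lost it without 2, 3 or 4 of the samples. With the M number as a block, the adjusted p of Hsd17b13 (0.218), Mmp11 (0.138), Plin3 (0.124), Psmb8 (0.151), Slc16a3 (0.143), Tgfbr1 (0.104), Ccl5 (0.168), Cd274 (0.101), Cdk1 (0.243), Gins2 (0.233) and the 4 globins (0.111 to 0.259) passed 0.1 as well, and Ppp1r15a (0.0426) and Vim (0.0130) passed the test.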

How the data were processed

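HSC RNA was sequenced with a 3' end kit (QuantSeq FWD) by the authors. Per the labels the processing used STAR and StringTie with mm10, and the counting step and annotation release are not given in the sources used here. The deposited table holds whole-number read counts per gene for 19 samples, raw and without normalization, and 0 columns of per-sample values were left unused. Of 55487 genes, 55227 Ensembl identifiers matched a symbol in GENCODE release M21. Samples were grouped by labelled culture time.

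Genes were kept with edgeR 4.0.16 (filterByExpr), scaled by TMM and tested in 1 quasi-likelihood fit of all 19 samples (time as the factor, contrast 12 h minus 0 h), as the 0 h group holds 2 samples. Standard errors were the log2 fold change divided by the square root of F. The biological coefficient of variation was 1.06 and the median standard error 1.33. On simulated counts for 14169 genes of this comparison, 18 of 100 genes changed 4-fold and 45 of 100 changed 8-fold were called, with 2 false calls. A bound from 3 counts covers counting error only. An exact permutation test of 3 against 2 samples cannot reach 0.05, so single genes were tested only in the fit. The labels do not say that samples of 1 time are separate animals beyond their M number, so p-values measure the spread between these samples.

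M numbers come from the labels, which do not say what they stand for. Same-numbered samples were taken as pairs, a reading that rests on the labels joining the number to an isolation date. Their deviations from the time means correlated by 0.0143 on average over 51 pairs, against -0.00704 over 103 pairs of different numbers, and by 0.005 and 0.020 between the 0 h and 12 h samples of M2 and M3.

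Members and gene lists were chosen with earlier results of these data known, so lists are described by counts and medians, with no set test. Named were the first 10 rises and falls by fitted log2 fold change among called genes averaging at least 50 CPM without overlap, the 3 strongest called members in each direction and the most abundant uncalled member of a list, defining markers, and members whose role or failure to pass was the point of a sentence. Some genes that this rule picks are not reported here. Alternatives were DESeq2 1.42.0, other scaling, filter, samples, covariates, depth and thresholds, and each sample left out. Promoters were RefSeq GRCm38.p6, 250 bases upstream of 27025 gene starts, searched for 8 motifs on both strands. Besides those in the text, these were the AP-1 site TGANTCA, the serum response box (CCA and TGG with 6 free bases between) and the antioxidant element TGANNNNGC. The text gives each motif for the list of its factor, and other pairs were also raised. CACGTG lay in 3 of 12 tRNA synthetase promoters (6.86% of all) and TGANTCA in 7 of 29 of the chemokine list (7.82% of all). Lists written around a factor partly set the share of its motif, and binding was not tested.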

Additional observations from a re-analysis of the deposited data

How the results depend on the processing

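No alternative called any gene in the opposite direction, and the calls for stellate markers and for all lists together stayed within 1.5 times of those reported. Genes called lower numbered 916 (against 1378) at an adjusted p below 0.05, and 859 to 1172 when 1 sample was left out. Markers of other liver cells called lower numbered 22 (against 35) at an adjusted p below 0.05, and 16 to 24 when 1 sample was left out, where the shared estimate of the spread stands in for a lone 0 h sample. Genes called higher numbered 1037 to 1243 with 1 sample left out. DESeq2 called 1454 higher and 1944 lower, its median log2 fold change over all genes being -0.146, and 3176 adjusted p values were not given. Library size alone gave 1445 and 1295. With the M number as a replicate block 1265 rose and 1265 fell, 2346 of them shared with the reported calls in the same direction, and beside the changes given in the text the block changed no other call of a named gene. Among 1440 counts of list members under alternatives, 133 moved by over 1.5 times. Log2 fold changes turned sign for genes that had not passed and for Psmb8, which ranged from -11.1 to 5.38 with 1 sample left out. Acta2 turned to 0.0587 with library size alone and 0.0958 with the block, and ranged from -0.561 to 0.831 with 1 sample left out. Aldoa turned to -0.208 with DESeq2, -0.0390 with no filter and -0.0763 with the block, and ranged from -0.206 to 0.271. DESeq2 turned Ccnd2 (-0.0422), Cxcl12 (-0.0797), Fth1 (-0.0043) and Igf1r (-0.109), and library size alone turned Pf4 (0.0309). With 1 sample left out the ranges were -0.768 to 0.137 for Atf3, -0.0974 to 0.428 for Cxcl12, -0.0011 to 0.211 for Igf1r and -1.16 to 0.509 for Pf4. The cause of these changes was not tested. The 0 h sample of M3 is the shallowest of the 19, and 867 tested genes had 0 counts in all 5 samples.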
